A study of Mus musculus with 12 samples.

Results

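The 10 genes described here, Fkbp5, Sgk1, Klf9, Ddit4, Errfi1, Arrdc2, Cdkn1a, Plin4, Hif3a and Mt2, are genes that glucocorticoid hormones are known to induce, and they are 10 of the 19775 genes with normalized counts in whole mouse brain. They were chosen by symbol from earlier results on these same mice, in which their levels rose and fell together between mice of 1 genotype, so that covariation is given below as a description without a test. RNA-seq was performed on whole brains of male C57BL/6N mice at about postnatal day 120, with 4 mice each that were wild type (WT), heterozygous (HT) or homozygous (HM) for a deletion of exon 3 of Slc6a20a, which encodes a proline and glycine transporter. All 3 genotypes came from crosses between heterozygous parents, and the deletion is in the germline, so that no cell type was targeted. Each library was made from 1 brain, and mice are named by genotype and replicate (WT 1 to WT 4). The normalized count of Slc6a20a was 584 to 750 in WT mice, 310 to 372 in HT mice and 55.6 to 76.5 in HM mice, without overlap between genotypes. Normalized counts summed over all genes spanned 33285000 to 33748600 per mouse, which reflects the normalization and does not show the sequencing depth.

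Glucocorticoids, mainly corticosterone in mice, are adrenal hormones whose level in blood follows the time of day and rises within minutes of stress. They enter cells and bind the glucocorticoid receptor (Nr3c1), which is held in the cytoplasm by Hsp90 and its co-chaperones, moves to the nucleus after binding and activates or represses genes from DNA sites called glucocorticoid response elements. In brain the receptor is present in neurons, glia and the cells of blood vessels, and several of the genes below are used as readouts of its activity.

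The elements are short, and their letters were searched in promoter windows of RefSeq genes (GRCm38.p6), each reaching from 250 bases before to 50 bases after an annotated start site. All 10 genes were matched, with 17 windows in all, of which Sgk1 had 6. A palindromic element, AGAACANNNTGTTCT, was present on either strand in 3 of 32851 windows (0.00913%), and 1 of these belonged to Sgk1, at chr10:21993701-21993715, with its first base 189 bases before the start site of that window. The metallothionein Mt2 is shown beside it because a loose form of the metal response element core, TGCNCNC, was found 6 times in its window. Of these, 5 lie before the start site. The stricter core has A or G at the first N, and the matches GGGAGCA (minus strand) and TGCTCTC have T there. Each stretch is printed 5′ to 3′ on the plus strand and ends 1 base before the start site, at chr10:21993640-21993889 for Sgk1 and chr8:94172368-94172617 for Mt2, with matches in capitals.
Sgk1: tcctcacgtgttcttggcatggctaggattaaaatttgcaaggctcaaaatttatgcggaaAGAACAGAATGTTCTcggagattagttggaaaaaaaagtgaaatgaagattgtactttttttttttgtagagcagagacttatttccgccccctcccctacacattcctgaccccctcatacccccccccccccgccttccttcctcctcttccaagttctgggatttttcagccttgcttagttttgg
Mt2: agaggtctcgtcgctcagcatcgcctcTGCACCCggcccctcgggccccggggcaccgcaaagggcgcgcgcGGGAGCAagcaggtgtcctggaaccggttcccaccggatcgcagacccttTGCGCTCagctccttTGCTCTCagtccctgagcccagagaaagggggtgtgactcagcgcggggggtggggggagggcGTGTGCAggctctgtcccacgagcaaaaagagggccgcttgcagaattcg
The palindromic element contains the half-site AGAACA, which on its own was found in 3 of the 17 windows, all of Sgk1, and in 19% of all windows. The loose form of the metal response element core was found in 9 of the 17 windows, from 8 of the 10 genes, against 51% of all windows. These matches describe letters in short windows and say nothing of elements farther away, and binding of the receptor was not measured.

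All 10 genes passed the filter on low values, a mean normalized count of 10 or more across the 12 mice. Per kb of the longest annotated transcript, Mt2 had the highest mean level (5711 normalized counts per kb), followed by Klf9 (1990), Sgk1 (1769), Ddit4 (1182), Fkbp5 (588), Cdkn1a (461), Arrdc2 (441), Errfi1 (399), Plin4 (334) and Hif3a (134). The range across the 12 mice did not follow this order. The highest mouse was above the lowest by 2.47-fold in Arrdc2, 2.24-fold in Hif3a, 2.20-fold in Cdkn1a and 2.19-fold in Plin4, and by 1.26-fold in Klf9 and 1.32-fold in Mt2. Among genes with means over 500 normalized counts, the standard deviation (SD) of log2 values within genotypes was larger for these genes than for 86.6% (Klf9) to 99.8% (Hif3a) of genes.

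**Figure D1:**
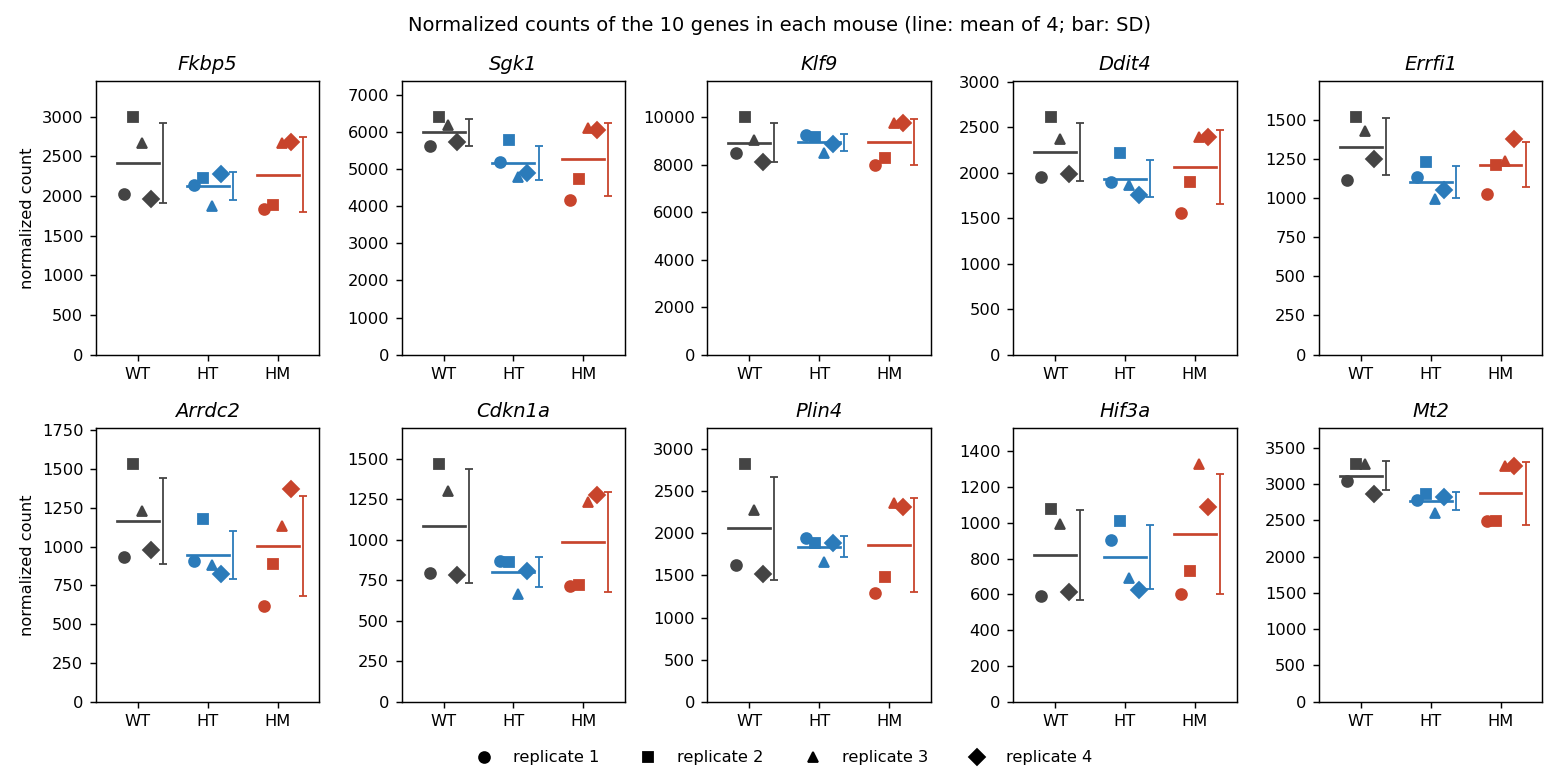
Normalized counts (y axis) of each gene in the 4 WT, 4 HT and 4 HM mice (x axis), with 1 marker shape per replicate number, a line at the mean and a bar for the SD of the 4 mice. WT 2 and WT 3 are the upper pair of WT mice and HM 3 and HM 4 the upper pair of HM mice in every panel, while the HT mice lie closer together in most panels.

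Fkbp5 encodes a co-chaperone of Hsp90 that lowers the affinity of the glucocorticoid receptor for hormone, and it lies on chromosome 17 (chr17:28399094-28517527, GRCm38, minus strand). Its normalized counts were 2027, 2998, 2668 and 1955 in WT 1 to WT 4, 2138, 2225, 1877 and 2272 in HT 1 to HT 4, and 1830, 1885, 2670 and 2679 in HM 1 to HM 4. WT and HM mice each split into an upper and a lower pair, and all 4 HT mice lay below both upper pairs. Cdkn1a, which encodes the cyclin-dependent kinase inhibitor p21, lies on the same chromosome (chr17:29090976-29100727, plus strand). Cdkn1a counts were 794, 1469, 1303 and 783 in WT, 868, 862, 668 and 804 in HT, and 716, 723, 1236 and 1275 in HM mice. Here too the upper pairs of WT and HM mice stood above every other mouse, by a wider margin relative to the level of the gene than for Fkbp5. Plin4, encoding a perilipin that coats lipid droplets, lies on chromosome 17 as well (chr17:56100591-56109803, minus strand). It was measured at 1624, 2827, 2283 and 1513 in WT, 1941, 1883, 1666 and 1884 in HT, and 1292, 1482, 2364 and 2314 in HM mice, again with the same 4 mice on top.

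Klf9 and Hif3a encode transcription factors, Klf9 a Krüppel-like zinc finger protein and Hif3a a member of the hypoxia-inducible factor family. Klf9 (chr19:23141226-23168134, plus strand) had 8499, 10012, 9045 and 8106 normalized counts in WT, 9233, 9143, 8470 and 8861 in HT, and 7961, 8257, 9764 and 9768 in HM mice. The 3 genotype means of Klf9 were close together, 8915 ± 826 in WT mice, 8927 ± 343 in HT mice and 8937 ± 965 in HM mice (SD, n = 4), although the mice within WT and HM were not. Hif3a (chr7:17031507-17062427, minus strand) was at 594, 1081, 994 and 614 in WT, 902, 1010, 694 and 625 in HT, and 603, 729, 1331 and 1091 in HM mice. Both genes had HT 1 and HT 2 above HT 3 and HT 4, and the highest value of Hif3a was in HM 3.

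The next 4 genes act in signalling. Sgk1 encodes a serine/threonine kinase that regulates ion channels and transporters (chr10:21882184-21999903, plus strand), and its counts were 5638, 6416, 6196 and 5730 in WT, 5201, 5795, 4786 and 4893 in HT, and 4158, 4723, 6120 and 6070 in HM mice. HT 2 was the only HT mouse above a WT mouse for Sgk1. Ddit4, an inhibitor of the growth kinase mTORC1, lies on the same chromosome (chr10:59949669-59951834, minus strand), with 1948, 2615, 2365 and 1985 in WT, 1898, 2219, 1861 and 1749 in HT, and 1558, 1902, 2395 and 2390 in HM mice. HT 1, HT 3 and HT 4 were thus below every WT mouse.
Errfi1, whose protein inhibits the EGF receptor (chr4:150853919-150868892, plus strand), had 1113, 1520, 1431 and 1249 in WT, 1132, 1233, 996 and 1050 in HT, and 1025, 1210, 1238 and 1378 in HM mice. Its HM mice were not split as widely as for the other genes. Arrdc2, a member of the alpha-arrestin family (chr8:70835129-70839720, minus strand), had 930, 1533, 1227 and 979 in WT, 905, 1176, 883 and 824 in HT, and 620, 887, 1135 and 1372 in HM mice. HM 1 had the lowest value of all 12 mice for Arrdc2, as it did for Fkbp5, Plin4, Klf9, Sgk1 and Ddit4.

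Mt2 encodes a metallothionein, a small protein that binds zinc and copper (chr8:94172664-94173568, plus strand). It was measured at 3044, 3280, 3274 and 2865 in WT, 2788, 2861, 2597 and 2827 in HT, and 2495, 2490, 3245 and 3255 in HM mice. All HT mice lay below all WT mice, the highest HT mouse (2861) just under the lowest WT mouse (2865). Mt2 and its neighbour Mt1 are close paralogs, and reads may be divided between them. For 7 of the 10 genes the annotated span overlaps that of another gene, on the other strand for 6, and for Cdkn1a, Plin4 and Mt2 the overlapping gene is itself among the 19775 genes. Whether quantification used the strand is not given in the sources used here, so reads of such pairs may not be fully separated.

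To describe how the genes moved together, log2 values were taken as deviations from the mean of their genotype. Over the 12 mice, Pearson's r between 2 of the 10 genes had a median of 0.887 over the 45 pairs, with a range from 0.667 (Errfi1 with Mt2) to 0.986, and Spearman's coefficient had a median of 0.874. Of these pairs, 43 (95.6%) had an r of at least 0.8, compared with 0.417% of the 162099015 pairs of all 18006 genes past the filter, whose median r was 0. The correlation of each gene with the mean of the other 9 ran from 0.873 (Errfi1) to 0.964 (Klf9). The genes share library, normalization and mouse in these comparisons, and the closest ties were among Fkbp5, Klf9, Cdkn1a and Plin4 and between Ddit4 and Arrdc2.

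**Figure D2:**
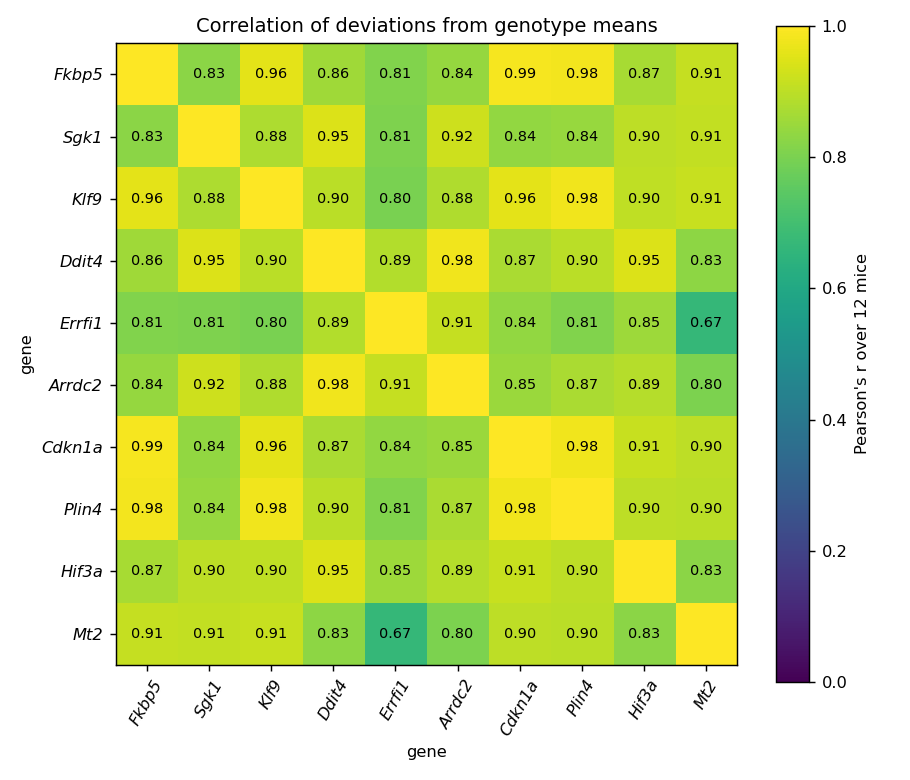
Pearson's r (colour and number) between each 2 of the 10 genes, on both axes, computed over 12 mice from deviations of log2 values from the genotype mean. All pairs are positive, the lowest being 0.67 for Errfi1 with Mt2.

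The pattern did not rest on a single genotype or on the most extreme mice. Without WT 2 and HM 1, whose 10-gene means lay farthest from the median mouse, the median r was 0.854. It was 0.884 with the WT mice left out, 0.920 without the HT mice and 0.839 without the HM mice, and 0.861 to 0.904 with any 1 mouse left out. Within WT, WT 2 was highest and WT 3 second for all 10 genes. Within HM, HM 3 and HM 4 were the top pair for all 10, and HM 1 was lowest for 9. Of all genes, 20.05% had WT 2 and WT 3 on top of WT, 20.02% had HM 3 and HM 4 on top of HM, and 4.52% had both. The HT order was looser, with HT 2 highest for 6 genes and HT 3 lowest for 7.

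The mean log2 level of the 10 genes relative to all 12 mice was -0.13, 0.39, 0.24 and -0.13 in WT 1 to WT 4, -0.04, 0.07, -0.22 and -0.15 in HT mice, and -0.37, -0.19, 0.26 and 0.27 in HM mice. The distance between the highest and the lowest mouse was thus shorter in HT than in WT or HM mice, although a difference in spread was not tested. The labels carry an animal number for each mouse whose meaning is not stated, and mice whose numbers begin alike did not always have like levels. HM 1 and HM 2 (271) were both low, WT 2, HT 1, HT 2 and HM 4 (276) ran from -0.04 to 0.39, WT 3, WT 4, HT 3 and HT 4 (278) from -0.22 to 0.24, and WT 1 and HM 3 (274) were at -0.13 and 0.26. With deviations taken from the mean of mice whose numbers begin alike in place of the genotype mean, the median r between the genes was 0.786.

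The comparison of HT with WT mice asked whether loss of 1 Slc6a20a allele changed these genes. Mean log2 values were lower in HT mice for 8 of the 10 genes, with a median log2 fold change of -0.18 against 5.1e-05 over all 18004 genes tested. By limma with Benjamini-Hochberg adjustment over all genes tested, 0 of the 10 passed an adjusted p of 0.05, which 0.00555% of all genes did, and the lowest adjusted p was 0.752. At an unadjusted limma p under 0.05, 4 of the 10 were lower in HT mice, against 3.26% of all genes in that direction and 6.42% in either, and 0 were higher. These 4 were Sgk1, Errfi1, Cdkn1a and Mt2. Since the 10 genes move together from mouse to mouse, they are not 10 separate observations.

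Sgk1 differed by a log2 fold change of -0.22 (SE 0.061, 95% interval -0.35 to -0.083, limma adjusted p = 0.752, exact two-sided permutation p = 0.0857). Mt2 differed by -0.17 (SE 0.053, interval -0.28 to -0.056), and its groups did not overlap (exact permutation p = 0.0286, the smallest that 4 against 4 mice allow), as for 1.91% of all genes with HT below WT. Errfi1 differed by -0.26 (SE 0.093, exact permutation p = 0.114) and Cdkn1a by -0.39 (SE 0.18, exact permutation p = 0.286), the largest difference of the 10, with overlapping groups in both. Klf9 (0.01, interval -0.12 to 0.13) and Hif3a (0.00 with an interval of -0.41 to 0.42) had almost the same mean in both genotypes, and the interval of Hif3a is wide.

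The count of 4 depended on single WT mice. It was 2 without WT 2, the mouse with the highest level of all 10 genes in its genotype (3.29% of all genes were lower at this threshold in that fit), and 7 without WT 4 (3.07%), and it was 2 when the HM mice were added to the fit (3.47%). With the beginning of the animal number as a block, all 10 genes were lower in HT mice and 7 passed an unadjusted p of 0.05, against 3.65% of all genes lower in the same fit. WT 1 (274) shares its beginning with no HT mouse, so it does not enter the differences of that fit. With WT 1 left out and no block, all 10 genes were also lower and 6 passed, against 3.4% of all genes. Erythrocyte genes moved with the same comparison: the summed level of 5 of them was 7780 to 21984 in WT and 6495 to 8717 in HT mice, and all 5 were lower in HT mice at an unadjusted p under 0.05, against the 3.26% of all genes above. Their part in the differences of the 10 genes was not tested.

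In HM mice, which lack both intact alleles, the comparison with the same 4 WT mice left all 10 genes short of the test. Mean log2 values of 8 of the 10 were lower in HM mice, against 50.2% of all genes, with a median log2 fold change of -0.13, from -0.25 for Arrdc2 to 0.18 for Hif3a. Only 4 of the 10 were lower without HM 1 and 5 without WT 2, and 8 to 10 with any other mouse left out. By limma, 0 of the 10 passed the adjusted threshold, which 0.0111% of all genes did, and 0 passed an unadjusted p of 0.05, against 6.99% of all genes. The 95% intervals reached from -0.70 to 0.70 over the 10 genes. Sgk1 came closest to the unadjusted threshold (-0.20, interval -0.43 to 0.023, exact permutation p = 0.286). The count was 1 without WT 1 (6.68% of all genes in that fit) or HM 3 (7.40%) and 2 without HM 4 (6.07%). With the animal-number block all 10 genes were above 0 and 1, Hif3a, passed an unadjusted p of 0.05, against 7.85% of all genes. That fit compares only HM 3 with WT 1 and HM 4 with WT 2, since no other HM and WT mice share a beginning. The low HM 1 and HM 2 do not enter its differences. HM and HT mice were also compared directly. Here 8 of the 10 genes had higher mean log2 values in HM mice, with a median log2 fold change of 0.06, and 0 of 10 passed either the adjusted threshold (0.00556% of all genes) or an unadjusted p of 0.05 (3.74%) by limma. The direction depended on single mice: 8 of the 10 genes were below 0 without HM 3 and 7 without HM 4. Without HM 1, 3 genes passed the unadjusted threshold, Ddit4, Errfi1 and Cdkn1a (3.77% of all genes in that fit), and without HM 2 only Cdkn1a did (3.62%). With the animal-number block the count was 4, all higher in HM mice, against 5.44% of all genes in either direction, although only HM 4, HT 1 and HT 2 share a beginning in that comparison.

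**Figure D3:**
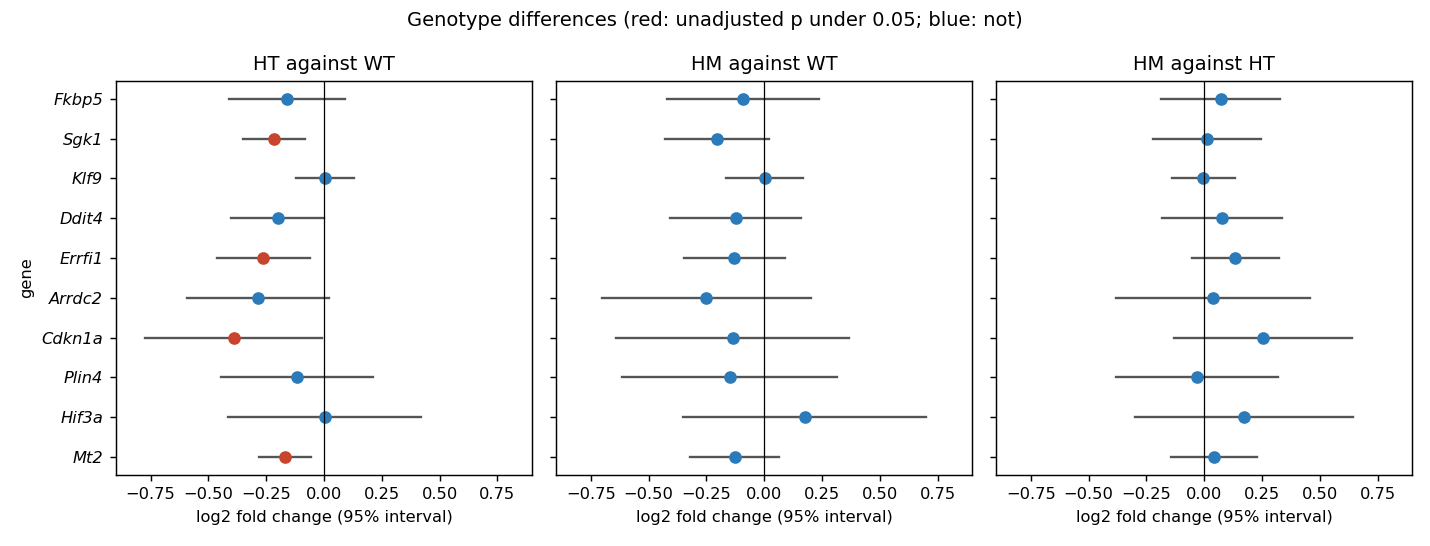
Log2 fold change (x axis, point) with its 95% interval (line) for each gene (y axis) in HT against WT, HM against WT and HM against HT mice, 4 mice per genotype, in red where the unadjusted limma p was under 0.05. Red points are present for HT against WT alone (Sgk1, Errfi1, Cdkn1a and Mt2), and the HM intervals all include 0.

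Genes outside the 10 were then placed by Pearson's r between their deviations and the mean of the 10 genes over the same 12 mice. Of 17996 other genes, 548 (3.05%) had an r of at least 0.7 and 539 (3.00%) an r of -0.7 or less. The gene most like the 10 was Tma16 (r = 0.97, Spearman's coefficient 0.97), which encodes a factor of ribosome assembly, with 564, 1054, 897 and 494 normalized counts in WT, 563, 658, 511 and 544 in HT, and 440, 519, 779 and 1033 in HM mice. Trp53inp1, a p53-induced gene, followed (r = 0.96, Spearman's coefficient 0.98), at 612, 972, 803 and 602 in WT, 637, 782, 561 and 617 in HT, and 510, 589, 740 and 877 in HM mice. Both genes had the same upper mice as the 10. The other 8 with the highest r (0.94 to 0.96) were Net1, Gm19439, Rhou, Spsb1, Klf15, Nrros, Zfp46 and Mlph, of which Klf15 is a Krüppel-like factor.
At the other end stood Wnt7a (r = -0.96), a secreted Wnt ligand involved in brain blood vessel growth, followed by Rab3il1, Tmem121b, Cdh11 and Sall2 (-0.96 to -0.94). Wnt7a was at 358, 217, 278 and 374 in WT, 287, 254, 375 and 329 in HT, and 398, 353, 265 and 260 in HM mice, so that the mice high for the 10 genes were its low ones.

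A list of 18 other glucocorticoid-responsive genes was chosen with earlier results of these data known, so its counts are a description. Of these 18, 10 had an r of at least 0.7 and 0 an r of -0.7 or less, against 3.05% and 3.00% of all genes. They were Rhob (0.93), Nfkbia (0.90, encoding an inhibitor of NF-κB), Angptl4 (0.89), Sesn1 (0.87), Zbtb16 (0.87), Sult1a1 (0.86), Gpd1 (0.85), Pdk4 (0.80), Cebpd (0.76) and Mt1 (0.73). Nfkbia was at 950, 1139, 1128 and 950 in WT, 816, 1072, 799 and 845 in HT, and 724, 865, 1050 and 1166 in HM mice, with the order seen in the 10 genes. The best-known targets did not all follow. Tsc22d3, which encodes the glucocorticoid-induced leucine zipper, had an r of 0.66, the clock gene Per1 (also among the clock genes below) had 0.52, and Dusp1, a phosphatase of MAP kinases, had -0.01. Tsc22d3 was at 4186, 4447, 4295 and 4105 in WT, 3609, 4166, 3984 and 4161 in HT, and 3232, 3967, 3957 and 4361 in HM mice, so that HM 1 was lowest here too but HM 2 and HM 3 were alike. The mean of the 18 genes had an r of 0.823 with the mean of the 10 (Spearman's coefficient 0.881), and 0.707 without the 2 farthest mice. In HT against WT mice, 3 of the 17 of these genes tested (Nfkbia, Cebpd and Mt1) were lower at an unadjusted limma p under 0.05, against 3.26% of all genes, and 0 were higher, with a median log2 fold change of -0.05. In HM against WT mice 1 of the 18, Lcn2, passed that threshold (6.99% of all genes), and it was higher (log2 fold change 1.23, SE 0.46, limma adjusted p = 0.664). Lcn2 was close to the filter, a mean normalized count of 10. Its WT mean (7.5) and HT mean (7.1) were under the filter, so these genotypes were not compared for Lcn2. It entered the HM comparison through an HM mean of 22.7, with HM 2 at 46.6, HM 3 at 24.0, HM 4 at 11.1 and HM 1 at 9.0. Lcn2 and Cebpd were singled out after their values were seen.

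**Figure D4:**
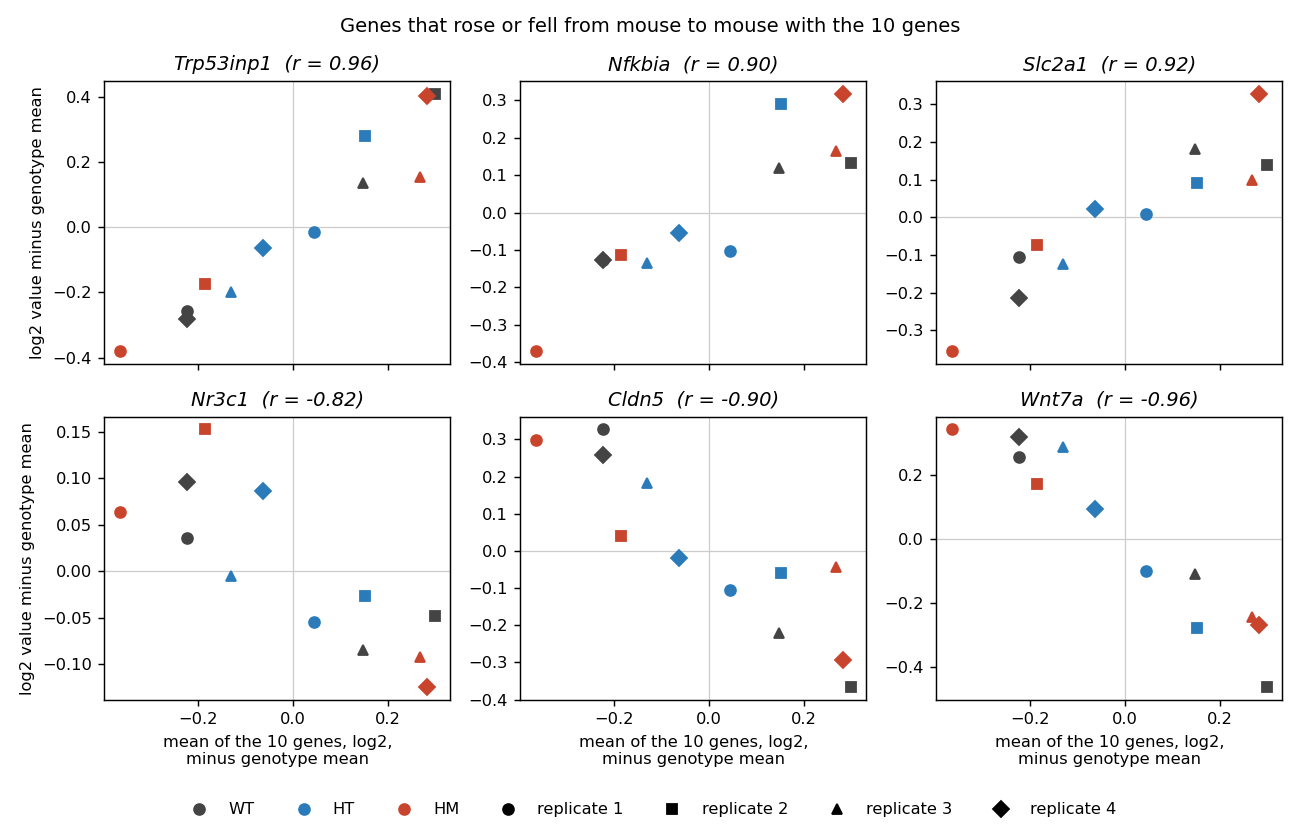
Deviation of log2 values from the genotype mean (y axis) against the same quantity for the mean of the 10 genes (x axis) in 12 mice, with colour for genotype and shape for replicate. Trp53inp1, Nfkbia and Slc2a1 rise along the x axis (r from 0.90 to 0.96), and Nr3c1, Cldn5 and Wnt7a fall along it (r from -0.96 to -0.82).

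Among genes of the receptor and its chaperones, some ran opposite to the 10 genes and others did not. Of 15 such genes, 0 had an r of at least 0.7 and 5 had -0.7 or less, namely Stip1 (-0.82), Nr3c1 (-0.82), Fkbp4 (-0.82), Hsp90ab1 (-0.75) and Dnajb1 (-0.73). Nr3c1, the glucocorticoid receptor, was at 2885, 2722, 2655 and 3009 in WT, 2900, 2957, 3001 and 3199 in HT, and 2862, 3044, 2569 and 2512 in HM mice, with WT 2, WT 3, HM 3 and HM 4 at the bottom of their genotypes. These differences between mice were small, 1.27-fold between the highest and the lowest mouse for Nr3c1 and 1.11-fold for Fkbp4, a co-chaperone related to Fkbp5. Nr3c2, the mineralocorticoid receptor, had an r of 0.09, and Hsd11b1, whose enzyme regenerates active hormone inside cells, had -0.28. In HT against WT mice 2 of these 15 genes, Ncoa1 and Ncor1, were higher at an unadjusted limma p under 0.05, against 6.42% of all genes in either direction, and 0 were lower, with a lowest adjusted p of 0.768. Among 7 genes of the hormone axis, which links hypothalamus, pituitary and adrenal gland, only Crhr2 reached -0.7 (-0.76), while Crh had -0.41, Avp 0.47 and Pomc 0.02.

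Other lists that contain some of these genes or respond to related signals were less closely tied. Of 11 hypoxia-inducible genes, Slc2a1, the glucose transporter of the blood-brain barrier, had an r of 0.92 and P4ha1 one of -0.84, and the other 9 lay between -0.7 and 0.7. Of 10 p53 target genes only Trp53inp1 was past 0.7, although Cdkn1a is itself a p53 target, and Mdm2 had 0.07. None of 11 immediate early genes and none of 16 circadian clock genes was past 0.7 in either direction, with median r of -0.35 and 0.22. Of 4 metal-responsive genes only Mt1 was.

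**Figure D5:**
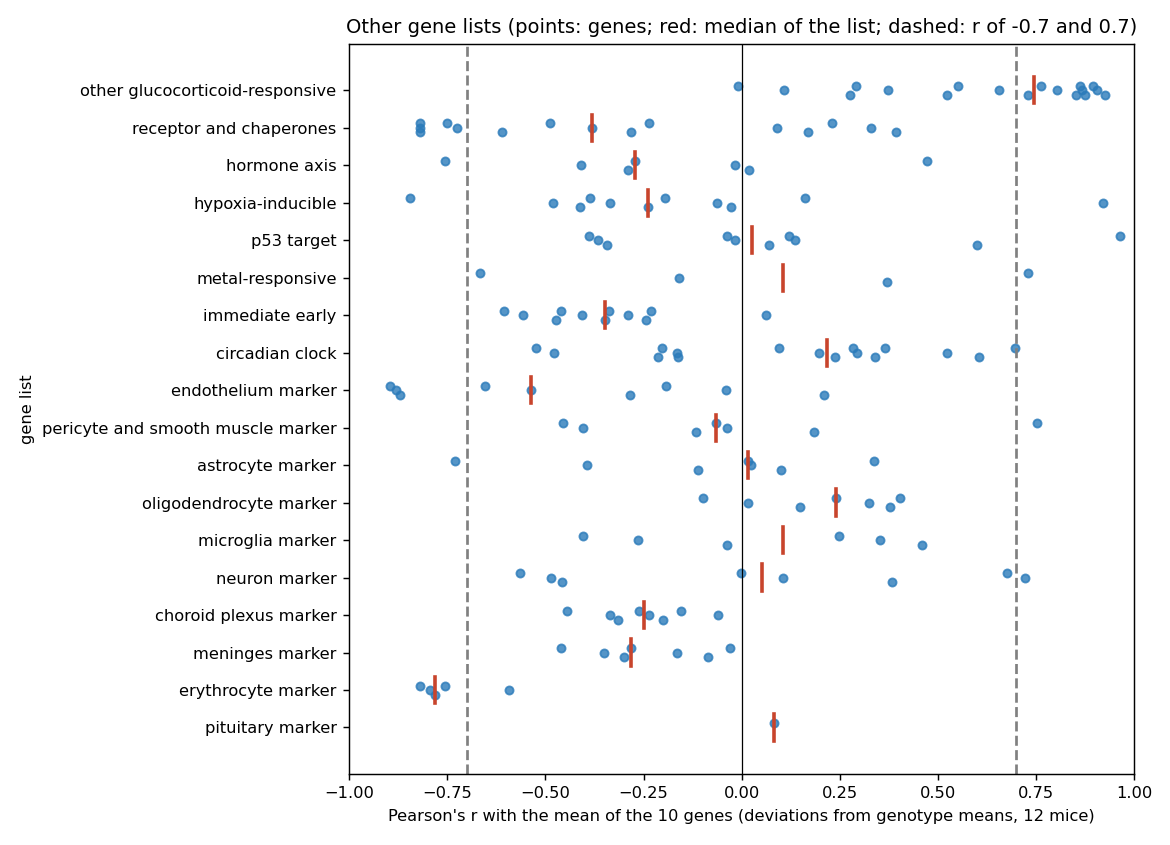
Pearson's r with the mean of the 10 genes over 12 mice (x axis) for each gene (point) of 18 lists (y axis), with the list median in red and dashed lines at -0.7 and 0.7. Other glucocorticoid-responsive genes have the highest median (0.75), and erythrocyte markers the lowest (-0.78).

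Markers of the cell types of brain were present in every mouse, and most did not follow the 10 genes. None of 7 oligodendrocyte, 6 microglia, 8 choroid plexus and 7 meningeal markers was past 0.7 or -0.7, and among 8 neuronal, 7 astrocyte and 7 pericyte and smooth muscle markers there was 1 gene each, Syt1 (0.72), Aldoc (-0.73) and Abcc9 (0.75). Of the 6 pituitary markers 1 was analysed here, Tshb (0.08), and its level was 48.1 to 74.6 normalized counts in all mice. Most erythrocyte and some endothelial markers ran opposite to the 10 genes. Of 9 endothelial markers 3 had an r of -0.7 or less, Cldn5 (-0.90), Kdr (-0.88) and Slc16a1 (-0.87), while Ly6c1 (0.21), Abcb1a (-0.04), Itm2a (-0.19) and Pecam1 (-0.28) did not come near it. Flt1 (-0.65) and Slco1a4 (-0.54) lay between. The mean of all 9 had -0.755, and their summed level ran from 8057 to 10572 in WT mice, 9311 to 10363 in HT mice and 9406 to 10367 in HM mice. Of 5 erythrocyte markers 4 had an r of -0.7 or less, with Hba-a1 at -0.82, and the mean of the 5 had -0.759 (the 2 alpha-globin genes are near-identical and may share reads). In bulk RNA fewer cells of a type and less RNA per cell cannot be told apart.

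The summed globin level was 21786, 7653, 13127 and 12039 in WT 1 to WT 4, 6422, 7127, 7432 and 8618 in HT mice, and 28729, 19966, 5814 and 13381 in HM mice. WT 2 and HM 3, both high for the 10 genes, had the least globin of their genotypes, and WT 1, HM 1 and HM 2, all low for the 10 genes, had the most, while WT 4 was low for the 10 genes and had no more globin than WT 3. With the mean log2 globin level as a covariate, added after the values were seen, the median r between the 10 genes was 0.739. With deviations from the mean of mice whose animal numbers begin alike, r with the mean of the 10 genes was -0.07 for Hba-a1 and -0.02 for Hbb-bt. These deviations keep the differences between genotypes, so the values cannot be set against the r within genotypes. The 0.786 given above for that setting is a median over pairs of the 10 genes, which is another measure.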

How the data were processed

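Poly(A) RNA from the whole brains of 12 mice was sequenced as paired 100-base reads. The submitters' processing notes name GRCm38, Salmon 1.1.0, DESeq2 1.30.1 and R 4.1.1. The deposited table holds a signal per gene and mouse, the count estimated by Salmon and scaled by the authors with DESeq2. At most 29.5% of the low values of a mouse were within 0.05 of whole multiples of its lowest value, so reads were not recovered, depth is unknown and no count model was fitted. The authors' own tables of differences were not used. Columns named KO were taken as the homozygous mice. Of 19775 gene identifiers, 19758 were found in GENCODE M21 (GRCm38), which gave symbols, positions and lengths, and 17 were not. Promoter sequences came from RefSeq (GRCm38.p6).

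The 10 genes, the gene lists and the tests were chosen with earlier results of these data known. Genotypes were compared pairwise with limma 3.58.1 (R 4.3.3) on log2 values with a pseudocount of 1, letting the prior variance depend on expression (trend), for genes averaging 10 or more over the 8 mice compared, a threshold of 0.05 and Benjamini-Hochberg adjustment over all of them. Fold changes on this scale are slightly understated for low genes. HT and HM mice were compared with the same WT mice, so these 2 comparisons are not independent. Covariation was computed from deviations from genotype means in Python 3.11.15 (numpy 2.4.6, pandas 2.3.3, scipy 1.17.1, with plots by matplotlib 3.10.9). Both steps were tested on simulated data. Genes named were the 10, Slc6a20a, Nr3c1, Nr3c2, Hsd11b1, Tsc22d3, Per1 and Mt1, of each other list the 2 genes with the highest and the 1 with the lowest r with the mean of the 10 and any with an adjusted p under 0.05, and over all genes the 10 with the highest and the 5 with the lowest r. Other members of a list were named beside a count of them, after their values were seen. Alternatives were a pseudocount of 0.1, no filter, quantile normalization, no trend in the variance prior, a fit of all 12 mice, a replicate block, an animal-number block, and each mouse left out.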

Additional observations from a re-analysis of the deposited data

How the results depend on the processing

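Counts are of the 10 genes at an unadjusted limma p under 0.05. For HT against WT the count of 4 became 2 in a fit of all 12 mice and 7 with the beginning of the animal number as a block, and ranged from 2 to 7 with 1 mouse left out. It was 3 with no trend in the variance prior. Sgk1 was counted in every fit. Cdkn1a was not counted with no trend, with quantile normalization, in the fit of all 12 mice, or without WT 2, WT 3, HT 2, HT 3 or HT 4. For HM against WT the count of 0 became 1 with a replicate block and 1 with the animal-number block, and ranged from 0 to 2 with 1 mouse left out. For HM against HT it became 4 with the animal-number block, and ranged from 0 to 3 with 1 mouse left out. An adjusted p under 0.05 was reached by 0 of the 10 genes in these comparisons under any of the alternatives.

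Directions changed as follows. In HT against WT, Klf9 (0.01 as reported) was -0.039 with the animal-number block and -0.023 with quantile normalization, and ranged from -0.039 to 0.063 with 1 mouse left out. Hif3a was -0.22 with that block and ranged from -0.13 to 0.15 with 1 mouse left out, and Plin4 ranged from -0.25 to 0.051. In HM against WT, the animal-number block gave 0.12 for Fkbp5, 0.019 for Sgk1, 0.085 for Ddit4, 0.0061 for Errfi1, 0.063 for Arrdc2, 0.22 for Cdkn1a, 0.13 for Plin4 and 0.041 for Mt2. Klf9 was -0.016 with quantile normalization. With 1 mouse left out, values ranged from -0.18 to 0.022 for Fkbp5, -0.043 to 0.059 for Klf9, -0.20 to 0.0035 for Ddit4, -0.28 to 0.028 for Cdkn1a, -0.28 to 0.018 for Plin4 and -0.016 to 0.36 for Hif3a. The cause of these changes was not tested.

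The median r between the 10 genes, 0.887, was 0.786 with deviations from the mean of mice whose animal numbers begin alike and 0.739 with globin as a covariate, the latter added after the values were seen. Of 76 genes whose r was followed, 24 changed sign under some alternative. They were named by rule, except Fkbp4, Hsp90ab1, Dnajb1, Kdr and Slc16a1, which were added after their values were seen. Of the 34 with an r past 0.7 or -0.7, 1 did, Hbb-bt with the globin covariate (0.37), which contains that gene.

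The replicate numbers of the labels did not pair the mice: deviations of same-numbered mice correlated by -0.07 to 0.09 over 12 pairs, and in 2 of these the mice correlated best with their own number. With the replicate block the count for HT against WT was 6. With 4 mice per genotype, differences of the size of the spread within WT and HM mice could not be resolved, and the depth behind the values is unknown.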

Other observations

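Markers of pericytes and smooth muscle and of choroid plexus were also compared between HM and WT mice. Of 7 pericyte and smooth muscle markers, 4 were higher in HM mice at an unadjusted limma p under 0.05 (Acta2, Rgs5, Abcc9 and Myh11, with log2 fold changes of 0.28, 0.16, 0.24 and 0.23), against 6.99% of all genes in either direction. Acta2 and Myh11 encode contractile proteins of smooth muscle, and Abcc9 a subunit of a potassium channel of mural cells. Of 8 choroid plexus markers, 3 were lower (Clic6, Kl and Ttr, with log2 fold changes of -0.51, -0.53 and -0.35), against 3.05% of all genes. Ttr is the transthyretin that carries thyroid hormone in cerebrospinal fluid. All 3 were lowest in HM 2 and HM 4, with Ttr at 14281, 8995, 16267 and 9336 in HM 1 to HM 4 and 13722 to 17949 in WT mice. HM 1 and HM 3 lay within the WT range for Ttr and Kl and below it for Clic6. The 3 genes moved together and are not 3 separate observations. The lowest limma adjusted p among the 7 genes of both lists named here was 0.643, so that none passed adjustment over all genes. Apart from Abcc9, their r with the mean of the 10 glucocorticoid-responsive genes lay between -0.7 and 0.7. These genes were named after their values were seen.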
